A study of Mus musculus with 24 samples.

Results

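The genes described here are the ligands and receptors of axon guidance, 56 of the 16617 genes in the study's table. They were taken by symbol, as every row named for an ephrin, an Eph receptor, a semaphorin, a plexin of class A to D, a neuropilin, a Slit, a Robo, a netrin or an Unc5 receptor. The table held 5 ephrin-A and 3 ephrin-B ligands, 7 EphA and 5 EphB receptors, 6 semaphorins of class 3 and 12 of classes 4 to 7, 6 plexins, 2 neuropilins, 3 Slits, 3 Robos, 2 netrins and 2 Unc5 receptors.

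RNA was measured in mouse embryonic stem cells of 4 lines in 2 states, and the labels list 3 samples of each group. The lines were wild type, MLL3KO_MLL4fl (called floxed here), MLL3KO_MLL4KO (called knockout) and MLL3CD_MLL4CD (called catalytic-dead). Kmt2c encodes MLL3 and Kmt2d encodes MLL4, enzymes that methylate lysine 4 of histone H3 at enhancers. Naive cells stood for the ground state, and formative cells were collected 63 h after LIF2i, the culture supplement of naive cells, was withdrawn. Wild-type and catalytic-dead cells belong to the R1 line by their labels. The floxed and knockout lines both lack MLL3 by their names, so the knockout against the floxed line asks for the further loss of MLL4 as named, and the floxed against the wild-type line joins missing MLL3 with whatever else sets these cell lines apart. Since no genotype was present in more than 1 line, genotype and line cannot be told apart.

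Guidance cues steer growing axons and migrating cells by attraction or repulsion. Ephrins are held on the cell surface, ephrin-A by a lipid anchor and ephrin-B by a transmembrane segment, and signal with Eph receptor tyrosine kinases on the neighbouring cell, in both directions. Class 3 semaphorins are secreted and bind neuropilins, which signal through A-type plexins, whereas most other semaphorins are held on the membrane and bind plexins directly. Slits are large secreted repellents read by Robo receptors, and netrins are secreted cues read by Dcc or neogenin and by the Unc5 receptors. Many of these genes also serve outside the nervous system, in boundaries between cell groups, blood vessels and the early embryo.

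The 250 bases before the annotated start are shown for 4 genes on which results below turn, picked after their values were seen. Epha8 had no count in naive wild-type and floxed cells, Sema3e had large increases on differentiation, and Efnb1 and Nrp2 differed most between knockout and floxed cells among the ephrins and the neuropilins. The sequences are from RefSeq (GRCm38.p6), 5′ to 3′, with each CG pair in capitals.
Epha8, chr4:136956817-136957066, minus strand: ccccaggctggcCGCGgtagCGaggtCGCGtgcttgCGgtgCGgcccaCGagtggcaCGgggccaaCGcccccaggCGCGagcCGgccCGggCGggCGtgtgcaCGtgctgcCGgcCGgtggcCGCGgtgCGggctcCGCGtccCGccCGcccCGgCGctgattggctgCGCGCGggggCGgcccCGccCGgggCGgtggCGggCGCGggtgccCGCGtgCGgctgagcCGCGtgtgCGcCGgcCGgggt
Sema3e, chr5:14025026-14025275, plus strand: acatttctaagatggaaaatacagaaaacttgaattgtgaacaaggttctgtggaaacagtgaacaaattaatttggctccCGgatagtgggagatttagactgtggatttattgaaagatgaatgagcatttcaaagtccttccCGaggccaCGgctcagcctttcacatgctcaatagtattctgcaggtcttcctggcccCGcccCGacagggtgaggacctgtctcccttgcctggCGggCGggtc
Efnb1, chrX:99135811-99136060, plus strand: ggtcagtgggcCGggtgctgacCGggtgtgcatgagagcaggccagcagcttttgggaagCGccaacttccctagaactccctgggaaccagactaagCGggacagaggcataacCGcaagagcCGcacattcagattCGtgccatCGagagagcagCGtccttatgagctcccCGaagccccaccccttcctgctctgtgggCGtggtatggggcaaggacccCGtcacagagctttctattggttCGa
Nrp2, chr1:62703067-62703316, plus strand: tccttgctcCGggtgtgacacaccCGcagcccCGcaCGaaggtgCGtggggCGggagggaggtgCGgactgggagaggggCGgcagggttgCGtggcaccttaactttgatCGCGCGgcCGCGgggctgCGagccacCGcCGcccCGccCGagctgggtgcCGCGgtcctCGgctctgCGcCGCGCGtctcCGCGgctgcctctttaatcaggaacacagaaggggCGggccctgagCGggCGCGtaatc
The Epha8 window held 46 CG pairs, and 0.323% of all 32851 RefSeq windows of this length held as many. The Nrp2 window held 32 (4.58% of windows), that of Efnb1 13 (31.5%) and that of Sema3e 7 (46.3%). A window within 1000 bases of the gene's 5′ end was found for 45 of the 56 members, where the median was 17 CG pairs, against 6 over all windows. CG pairs ranged from 2, the count of Ntn5, to 46. The letters GGGCGG, searched on both strands, were in 34 of the 45 windows and in 32.7% of all windows. CCAAT was in 14 of the 45, against 33.8% of all, and TATAAA in 2, against 12.4%. Such matches describe the sequence and do not show binding. Each member gave only the window nearest its 5′ end, while all windows were taken without that choice or a limit to genes measured here. These sets are thus not alike.

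The deposited table gives 1 mean per group, in log2 CPM, the count of a gene scaled to a common library size, and the counts of 23 single libraries were recovered from these means. They held 4808564 to 15425959 counts, and libraries are called a, b and c by falling depth within a group. The naive wild-type mean was made of 2 libraries, and the remaining naive wild-type sample is not analysed here. Library c of the formative catalytic-dead cells, with 6919314 counts, also entered the deposited mean of the formative knockout cells. It was taken out of the knockout mean and is kept with the group that would otherwise fall short of its 3 samples. Where its count of a gene could not be solved, the formative catalytic-dead mean stood in for it in that step. Formative knockout means given below are those after this removal. Of the 448 member and group values, 423 could be split into libraries, and the other 25 have a deposited mean and no test. Tags come from the 3′ ends of transcripts, so levels are compared between groups for 1 gene and not between genes.

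Both target genes were still measured in the lines named for their loss. Kmt2d was at 27.6 to 41.7 CPM in the wild-type libraries, 21.6 to 33.0 in floxed, 15.3 to 24.4 in knockout and 18.8 to 28.6 in catalytic-dead ones. It was lower in naive knockout than floxed cells by 0.71 log2 (SE 0.18, adjusted p = 0.00572, limma). It was lower in formative catalytic-dead than wild-type cells by 0.81 (SE 0.18, adjusted p = 0.00344). The difference of formative knockout minus floxed cells was -0.34 ± 0.19 (adjusted p = 0.242). Kmt2c was at 37.7 and 62.6 CPM in naive wild-type and 13.3 to 31.6 in naive floxed libraries, lower by 1.06 (SE 0.30, adjusted p = 0.0411). It was at 19.9 to 22.8 CPM in naive knockout libraries. Tags from the 3′ end check no deletion that leaves this end in place. The labels do not say which part of either gene was deleted.

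The labelled states were visible in the sums of their markers, though not in every marker of every line. The 12 naive pluripotency markers summed to 2700.0 to 3170.0 CPM in the naive groups and to 574.0 to 779.0 CPM in the formative groups, and 9 formative markers to 116.0 to 247.0 and 1660.0 to 2660.0 CPM. Of the naive markers, Nr0b1 rose in knockout cells by 1.37 log2 (adjusted p = 0.005, limma) and Dppa3 in floxed cells by 0.64 (adjusted p = 0.0213). Foxd3, a formative marker, fell in floxed cells by 0.7 (adjusted p = 0.0156). The other calls between states in both lists went with the label. All 10 listed markers of neurons, the cells in which guidance genes are best known, were in the table. Their sum was 760.0 CPM in wild-type cells before and 186.0 CPM after differentiation, 572.0 and 248.0 CPM in floxed, 407.0 and 623.0 CPM in knockout and 185.0 and 132.0 CPM in catalytic-dead cells. Stmn2 made up 48.4 to 687.0 CPM of it, while Dcx was at 0 in the 4 naive groups and under 1 CPM in 7 groups. In wild-type cells Stmn2 could not be tested, and of the 9 neuron markers that could, 7 rose and 1 fell (88.9%, where 32.1% of all tested genes changed). In floxed cells 8 of 9 rose and 1 fell (33.9% of all genes), in knockout cells 6 of 8 rose (27.2%) and in catalytic-dead cells 7 of 9 (29.5%). The 8 neuroectoderm markers in the table summed to 19.8 to 33.9 CPM in naive and 54.5 to 110.0 CPM in formative groups, highest in formative knockout cells. What part such cells had in the changes below was not tested.

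**Figure D1:**
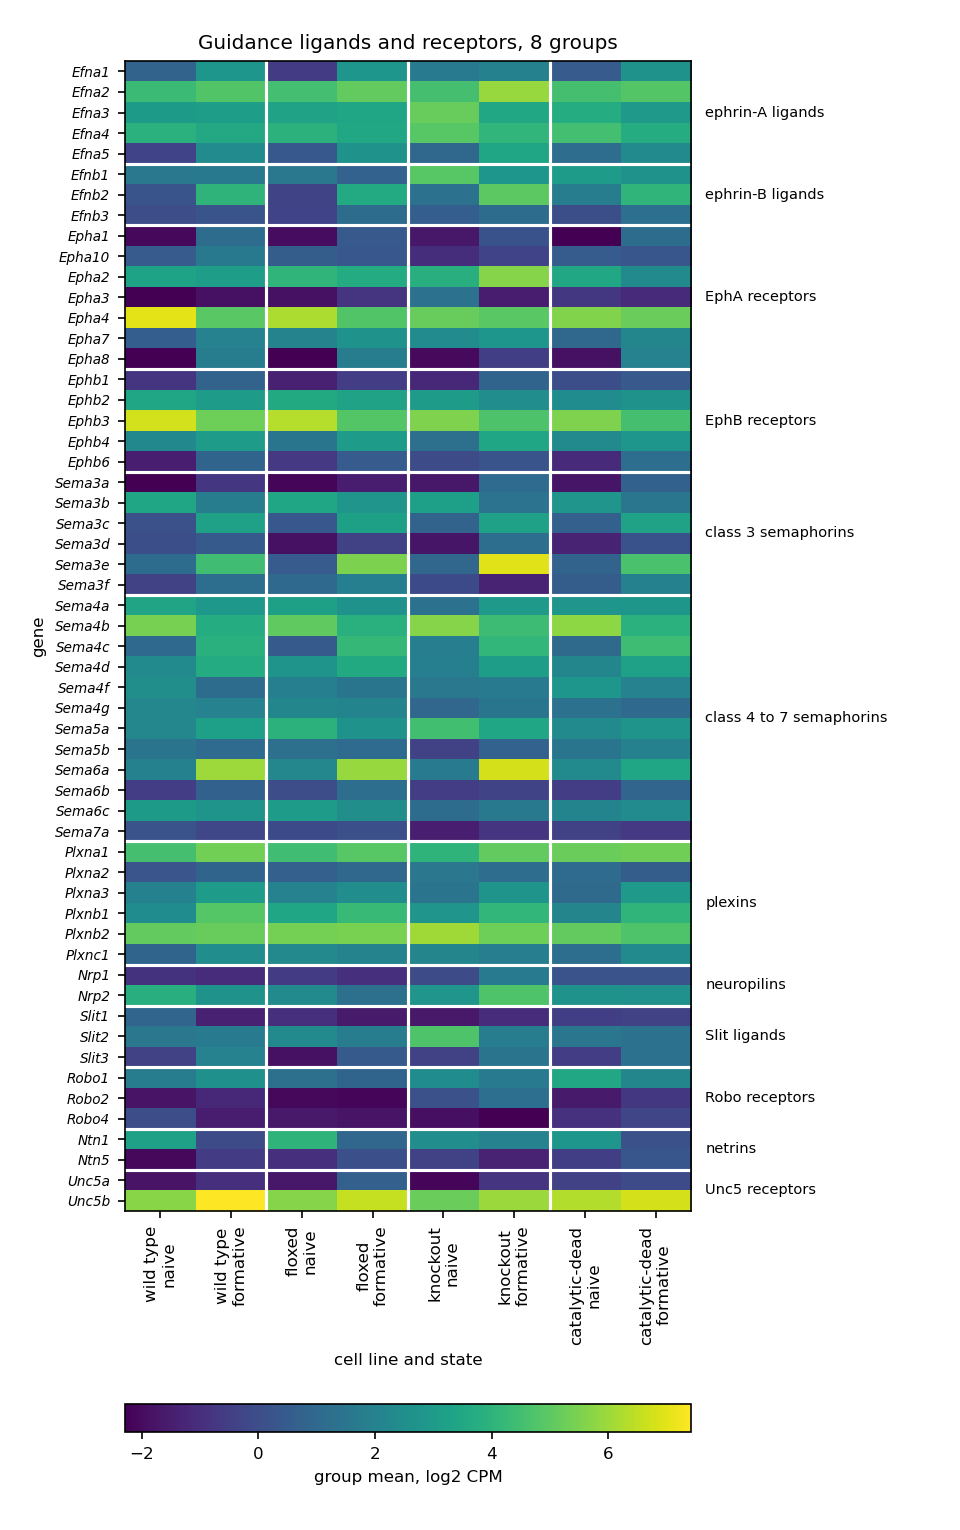
Group means of all 56 members in log2 CPM, 1 row per gene in 12 families and 1 column per line and state. Epha8, Efnb2, Sema3c, Sema4c and Slit3 brightened from naive to formative in the 4 lines, Ntn1 darkened in the wild-type, floxed and catalytic-dead lines, and Slit2 and Efnb1 were brightest in naive knockout cells.

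The guidance genes changed in both directions as cells left the naive state, with more members rising than falling in each line. A member is said to rise or fall where limma's test, adjusted by Benjamini-Hochberg over all genes tested, gave a p under 0.05, and log2 differences are given ± SE. A call is said to be lost where it fell short in 1 of up to 30 other settings, which left out 1 of the 23 libraries, changed the prior count, filter, weights, scaling or groups fitted, or took the columns as deposited, with the shared library in the knockout mean. In wild-type cells 18 of 52 tested members rose and 8 fell, 50.0% of them, where 32.1% of all 12253 tested genes were called (19.7% up and 12.4% down). In floxed cells 14 of 46 rose and 5 fell (41.3%), against 33.9% of all tested genes (22.5% up, 11.3% down). The knockout line had 19 of 45 up and 5 down (53.3%), against 27.2% (21.6% up, 5.59% down). The catalytic-dead line had 17 of 53 up and 9 down (49.1%), against 29.5% (18.5% up, 11.0% down). The median formative-minus-naive difference of tested members was 0.58, 0.37, 0.71 and 0.38 log2 in the wild-type, floxed, knockout and catalytic-dead lines, beside 0.16, 0.19, 0.29 and 0.12 over all tested genes. Scaling by median-of-ratios size factors in place of library totals lowered these differences by 0.21, 0.21, 0.31 and 0.14 log2. Under that scaling 13 members rose and 8 fell in floxed cells. The share of all genes called under it is not given here, so this count is not read as a result on the members. Library totals cannot tell fewer cells of a kind from less RNA per cell.

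Across the 4 lines, 9 members rose in each, namely Efna5, Efnb2, Epha1, Epha8, Sema3c, Sema4c, Sema4d, Plxnb1 and Slit3, and Sema3b fell in each. Of the 42 members tested in the 4 lines these are 21.4% and 2.38%. Of all 10488 genes so tested 7.29% rose in each line and 1.54% fell in each. Of the 56 members, 44 changed in at least 1 of the 10 comparisons of groups, and 12 in none. Of the genes tested at least once, 80.0% of 55 members and 62.9% of all 13565 changed somewhere. Of those tested in all 10, 34 of 42 members (81.0%) and 65.9% of all genes changed. The members without a call were Efna2, Epha7, Epha10, Sema4g, Sema5b, Sema6b, Sema7a, Plxna2, Plxnb2, Robo4, Ntn5 and Unc5b. Robo4 had 0 to 19 counts per library, did not pass the filter on low counts and was tested in no comparison. The counts of Unc5b could be recovered in 3 of the 8 groups.

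Among the ephrin ligands, Efnb2, the transmembrane partner of EphB receptors and a marker of arterial endothelium, showed the widest change from naive to formative cells. Efnb2 (chromosome 8, 8617434 to 8661242) stood at 0.843 and 1.13 CPM in the naive and 19.3, 11.1 and 19 CPM in the formative wild-type libraries. In floxed cells it went from 1.49, 0.288 and 0.453 to 14.9, 12.6 and 9.52 CPM, in knockout cells from 3.89, 1.77 and 1.86 to 34.3, 29.7 and 30.2 CPM, and in catalytic-dead cells from 3.35, 3.2 and 3.12 to 19, 14.2 and 17.1 CPM. No formative library overlapped a naive one in any line, and the formative knockout libraries were the highest of all. The log2 increase was 3.77 ± 0.52 (adjusted p = 2.2e-06) in wild-type, 3.91 ± 0.48 (adjusted p = 3.71e-07) in floxed, 3.62 ± 0.31 (adjusted p = 1.68e-09) in knockout and 2.3 ± 0.35 (adjusted p = 9.71e-06) in catalytic-dead cells. Efnb2 was higher in the naive state of knockout than of floxed cells, by 1.64 ± 0.53 (adjusted p = 0.0295), and in the formative state, by 1.35 ± 0.21 (adjusted p = 4.71e-05). The naive difference was lost without library a of naive knockout cells (adjusted p = 0.164), without library b (0.147) or c (0.0991) of naive floxed cells, and with the columns as deposited (0.0662).

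Efnb1, an X-linked ephrin-B ligand, passed no test between states in 3 lines and was highest in the knockout line. It (chromosome X, 99136130 to 99148991) was at 3.58 and 2.26 CPM in the naive and 2.38, 3.73 and 2.66 CPM in the formative wild-type cells, and at 1.77, 2.5 and 5.14 (naive) and 0.993, 2.03 and 1.59 (formative) CPM in floxed cells. The naive knockout libraries had 29.5, 25.6 and 33.3 CPM and the formative ones 5.91, 6.99 and 7.69 CPM. In catalytic-dead cells the values were 8.16, 10.2 and 6.89 CPM and 7.8, 4.82 and 6.79 CPM. Every knockout library lay above every floxed library, and every catalytic-dead library above every wild-type one. Efnb1 was higher in knockout than floxed cells by 3.27 ± 0.30 (adjusted p = 1.12e-08) log2 in the naive and 2.06 ± 0.38 (adjusted p = 0.000284) in the formative state, and it fell on differentiation of knockout cells by 2.07 log2 (SE 0.25, adjusted p = 3.12e-07). Catalytic-dead cells exceeded wild type by 1.48 ± 0.35 (adjusted p = 0.00701) in the naive and 1.09 ± 0.32 (adjusted p = 0.0299) in the formative state. The naive call was lost without library a of the naive wild type (adjusted p = 0.0594) or b (0.0796). The formative call was lost without library a (0.148) or c (0.0788) of formative wild-type cells and library a (0.13) or c (0.074) of formative catalytic-dead cells. Efnb3, the remaining ephrin-B, rose in floxed cells by 1.49 ± 0.51 (adjusted p = 0.0233), from 1.68, 0.192 and 0.453 to 1.6, 2.37 and 2.15 CPM, with groups that overlapped. That call was lost in 4 of 29 settings, without library b (0.0627) of the formative floxed cells, without library b (0.169) or c (0.0751) of the naive floxed cells and with the compared groups fitted alone (0.0621).

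Of the lipid-anchored ephrins, Efna5 rose in 4 lines and Efna1 in 3. Efna5 (chromosome 17, 62604184 to 62881317) went from 0.351 and 0.905 to 7.35, 3.53 and 4.78 CPM in wild-type and from 1.12, 0.865 and 1.36 to 6.57, 8.47 and 4.48 CPM in floxed cells. In knockout cells it went from 1.56, 1.77 and 1.86 to 11.2, 9.14 and 12.1 CPM, and in catalytic-dead cells from 2.12, 1.98 and 2.13 to 5.01, 4.35 and 5.49 CPM. All formative libraries exceeded the naive ones of their line. The log2 increase of Efna5 was 2.73 ± 0.52 (adjusted p = 0.000167), 2.32 ± 0.39 (adjusted p = 3.89e-05), 2.5 ± 0.33 (adjusted p = 1.45e-06) and 1.17 ± 0.37 (adjusted p = 0.017) in the 4 lines in this order, and formative knockout cells exceeded floxed by 0.75 ± 0.24 (adjusted p = 0.0296). The last call was lost in 7 of 30 settings, without library a (0.106) or c (0.0987) of the formative knockout cells, without library a (0.0604) or c (0.173) of the formative floxed cells, with the columns as deposited (0.221), with the compared groups fitted alone (0.0526) and without weights (0.123). The catalytic-dead call was lost without naive library a (0.062) or b (0.0552).

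Efna1 (chromosome 3, 89271733 to 89281142), first described as an endothelial ephrin, rose in 3 lines and did not pass the test in the knockout line. It went from 1.4 and 1.7 to 5.91, 7.46 and 7.17 CPM in wild-type, from 0, 0.961 and 1.06 to 6.49, 5.67 and 8.3 CPM in floxed and from 1.3, 0.609 and 1.97 to 7.16, 3.88 and 8.09 CPM in catalytic-dead cells. In the knockout line the naive libraries were at 1.94, 3.73 and 3.59 CPM and the formative ones at 4.41, 2.43 and 4.99 CPM, which overlap. The increases were 2.0 ± 0.50 (adjusted p = 0.00243) log2 in wild-type, 3.37 ± 0.54 (adjusted p = 1.81e-05) in floxed and 2.17 ± 0.50 (adjusted p = 0.00144) in catalytic-dead cells, and the difference in knockout cells was 0.33 ± 0.42 (adjusted p = 0.624). The increase in knockout minus that in floxed cells was -3.05 ± 0.68 (adjusted p = 0.00422). In the naive state Efna1 was higher in knockout than floxed cells, by 2.24 ± 0.57 (adjusted p = 0.00595). Without naive floxed library a, which had 0 counts, that call was lost (0.0993), as was the wild-type increase without library a of the naive wild type (0.0531).

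Efna3 and Efna4 neighbour each other on chromosome 3 and both fell in catalytic-dead cells, Efna3 by 0.76 log2 (SE 0.28, adjusted p = 0.0383) and Efna4 by 0.78 (SE 0.19, adjusted p = 0.0028). Efna3 had 10.2, 16.9 and 12.8 CPM before and 7.8, 6.43 and 8.67 CPM after, and Efna4 24.1, 18.1 and 26.2 (naive) and 15.5, 12 and 12.0 (formative) CPM. The Efna3 groups were separated by less than the spread within the naive group, and its call was lost without naive library b (0.187) or c (0.0715) or formative library a (0.0907) or b (0.127). In naive knockout cells only the deposited mean of Efna3 is known. It exceeded that of naive floxed cells by 1.88 (log2 5.17 against 3.29), and the formative minus the naive knockout mean was -1.66 (log2 3.5 against 5.17), so the naive knockout mean was the highest of these, without a test. Efna2 had a formative mean above its naive one in knockout cells by 1.37 (log2 5.93 against 4.56), also untested.

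Among the Eph receptors, Epha8 and Epha1 rose in all 4 lines from counts at or near 0. Epha8 (chromosome 4, 136929419 to 136956816), a receptor of the developing midbrain, had 0 and 0 counts in the naive wild-type libraries and 0, 0 and 0 in the naive floxed ones, and 3.17, 2.45 and 4.25 CPM in formative wild-type and 3.59, 2.2 and 4.29 CPM in formative floxed libraries. It had 0, 2 and 0 counts in naive catalytic-dead libraries and 3.58, 3.31 and 4.77 CPM in formative ones. Naive knockout libraries held 0, 0 and 1 counts and formative ones 1, 9 and 3 counts, or 0.100, 1.28 and 0.624 CPM. The formative knockout libraries thus lay below all other formative libraries. In the knockout line the states overlapped, since naive library c and the deeper formative library a held 1 count each. Against an upper limit of 3 counts for a group at 0, Epha8 was at least 24.6-fold higher in formative than naive wild-type cells and at least 30.9-fold higher in floxed cells. In catalytic-dead cells the ratio of pooled counts was 40.5-fold (95% interval 11.0 to 339), and in knockout cells, with 13 counts against 1, 20.7-fold (95% interval 3.12 to 882), where intervals cover counting error only. All 4 increases passed the test, with adjusted p of 6.01e-10, 9.08e-11, 0.0256 and 1.81e-08 in wild-type, floxed, knockout and catalytic-dead cells. The knockout call was lost in 6 of 29 settings, without library b (0.203) or c (0.0939) of the formative knockout cells, without library a (0.0687) or b (0.0671) of the naive knockout cells, at a prior count of 0.5 (0.0678) and with size factors (0.0861). The formative level was lower in knockout than floxed cells by 2.26 log2 (SE 0.54, adjusted p = 0.00395), and the increase was smaller there by 2.48 (SE 0.61, adjusted p = 0.00846). The first was lost in 2 of 30 settings, without library a (0.0752) of the formative knockout cells and with the columns as deposited (0.0558). The second was lost in 3 of 30 settings, without library a (0.0827) of the formative knockout cells, with the columns as deposited (0.0841) and at a prior count of 0.5 (0.192).

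Epha1 (chromosome 6, 42358487 to 42373268), the first Eph receptor to be cloned, had 1 and 0 counts in naive wild-type, 2, 0 and 0 in naive floxed, 2, 0 and 2 in naive knockout and 0, 0 and 0 in naive catalytic-dead libraries. Formative libraries had 2.38, 1.47 and 2.39 CPM in wild-type, 1.37, 1.02 and 1.03 CPM in floxed, 1.5, 0.285 and 1.46 CPM in knockout and 2.43, 1.42 and 2.31 CPM in catalytic-dead cells. Every formative library exceeded the naive libraries of its line. The pooled ratio was 48.2-fold (95% interval 8.35 to 1930) in wild-type and 16.0-fold (95% interval 4.15 to 136) in floxed cells, and Epha1 was at least 14.9-fold higher in formative catalytic-dead cells. The adjusted p was 6.33e-07, 7.44e-05, 0.00953 and 6.87e-09 in the 4 lines. In knockout cells the call was lost without formative library a (0.0872) or c (0.0601) or naive library b (0.0877). The last 1000 bases of Epha1 share 644 bases with exons of Zyx on the other strand, and whether tags were counted by strand is not known here. Such overlaps were also found for Ntn5 (429 bases, Sec1), Plxna1 (116, Gm26811), Unc5a (34, Hk3) and Ephb4 (33, Zan).

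Epha4 and Ephb3 went the other way. Epha4 (chromosome 1, 77367185 to 77515088), a receptor that binds both ephrin classes, was at 145 and 120 CPM in the naive and 21.6, 40.4 and 33.2 CPM in the formative wild-type libraries, and at 46.3, 45.8 and 50.9 CPM in naive catalytic-dead and 37.2, 35.6 and 35.0 CPM in naive knockout libraries. It fell by 2.09 log2 in wild-type cells (SE 0.23, adjusted p = 5.36e-07), and naive catalytic-dead cells were lower than naive wild type by 1.47 (SE 0.23, adjusted p = 0.000255). The deposited means differed by -1.47 (log2 4.77 against 6.23) between formative and naive floxed cells and by -1.06 (log2 5.18 against 6.23) between naive knockout and naive floxed cells, untested. Ephb3 (chromosome 16, 21204755 to 21223305) was at 146 and 78.5 CPM in the naive and 36.4, 43.4 and 37.1 CPM in the formative wild-type cells and at 65.4, 35.0 and 45.4 (naive) and 20.8, 25.6 and 23.6 (formative) CPM in catalytic-dead cells. The remaining formative libraries held 25.9, 28.4 and 29.8 CPM in floxed and 27.6, 28.0 and 21.8 CPM in knockout cells. Naive libraries exceeded formative ones in the wild-type and catalytic-dead lines. Ephb3 fell by 1.46 log2 in wild-type (SE 0.24, adjusted p = 4.28e-05) and 1.01 in catalytic-dead cells (SE 0.23, adjusted p = 0.00149), and the untested difference of deposited means in floxed cells was -1.54 (log2 4.82 against 6.35). It was lower in catalytic-dead than wild-type cells by 1.19 in the naive (SE 0.24, adjusted p = 0.00214) and 0.74 in the formative state (SE 0.23, adjusted p = 0.0456). The naive difference was lost without library a of the naive wild type (0.0703), and the formative one was lost in 12 of 30 settings, without library a (0.152), b (0.0662) or c (0.0938) of the formative catalytic-dead cells, without library a (0.085), b (0.131) or c (0.0727) of the formative wild-type cells, with the columns as deposited (0.0567), at a prior count of 0.5 (0.051) and without any 1 of 4 libraries of other groups (0.0504 to 0.0561).

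Epha2 and Epha3 differed between knockout and floxed cells as well. Epha2 (chromosome 4, 141301240 to 141329384), an EphA receptor common in epithelial cells, was at 9.13 and 11.1 (naive) and 7.85, 8.24 and 9.43 (formative) CPM in wild-type cells and at 15.3, 19.4 and 9.03 (naive) and 42.9, 57.4 and 49.7 (formative) CPM in knockout cells. Formative floxed libraries had 10.2, 15.1 and 12.7 CPM, and catalytic-dead cells 12.2, 11.7 and 10.3 CPM before and 4.37, 6.62 and 4.19 CPM after. Of the recovered libraries, the formative knockout ones were the highest and the formative catalytic-dead ones the lowest. Epha2 rose in knockout cells by 1.82 ± 0.21 (adjusted p = 2.56e-07) and fell in catalytic-dead cells by 1.17 (SE 0.31, adjusted p = 0.00504), and formative knockout exceeded formative floxed cells by 1.97 ± 0.21 (adjusted p = 2.68e-07). With the columns as deposited, where the knockout mean holds a catalytic-dead library, these calls were lost (0.212, 0.337 and 0.228).

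Epha3 (chromosome 16, 63543534 to 63864175), a receptor known from retinal and cardiac development, had 2.4, 2.57 and 2.1 CPM in the naive knockout libraries, from 83 counts in all. It had 0, 1 and 1 counts in naive floxed, 0 and 0 in naive wild-type, 5, 1 and 4 in naive catalytic-dead and 1, 0 and 2 in formative knockout libraries. Formative libraries had 0, 1 and 1 counts in wild-type, 7, 3 and 4 in floxed and 0, 6 and 3 in catalytic-dead cells. The naive knockout libraries thus stood above all 20 others. The ratio of pooled counts was 33.1-fold (95% interval 8.89 to 278) against naive floxed cells (adjusted p = 8.28e-07) and 17.3-fold (95% interval 5.73 to 85.8) against formative knockout cells (adjusted p = 4.84e-06). The change on differentiation in knockout minus that in floxed cells was -3.97 ± 0.67 (adjusted p = 0.00029). Naive catalytic-dead cells were at least 3.56-fold above naive wild type (adjusted p = 0.0331), a call lost in 7 of 25 settings, without library a (0.128) or c (0.165) of the naive catalytic-dead cells, without library a (0.0897) or b (0.0671) of the naive wild-type cells, without weights (0.0997), at a prior count of 0.5 (0.141) and with size factors (0.0611).

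Of the other EphB receptors, Ephb4 rose in 3 lines, Ephb6 in 2 and Ephb1 in 1, and Ephb2 passed no test between states. Ephb4 (chromosome 5, 137350109 to 137378669), the main receptor of Efnb2, had 4.71 and 4.3 CPM in the naive and 9.44, 5.69 and 9.56 CPM in the formative wild-type cells, 2.89, 1.63 and 3.63 (naive) and 7.87, 10.5 and 6.34 (formative) CPM in floxed and 2.53, 2.57 and 1.73 (naive) and 11.1, 10.1 and 11.2 (formative) CPM in knockout cells. Catalytic-dead cells had 6.04, 5.17 and 3.61 (naive) and 6.01, 5.77 and 8.96 (formative) CPM, which overlap. It rose by 1.57 ± 0.33 (adjusted p = 0.000429) in floxed and 2.17 ± 0.32 (adjusted p = 7.8e-06) in knockout cells. Its rise in wild-type cells, 0.81 ± 0.31 (adjusted p = 0.0464), was lost in 16 of 30 settings, without library a (0.146) or c (0.132) of the formative wild-type cells, without library a (0.182) or b (0.161) of the naive wild-type cells, with the columns as deposited (0.0523), with the compared groups fitted alone (0.0899), without weights (0.0728), at a prior count of 0.5 (0.051), with size factors (0.132) and without any 1 of 7 libraries of other groups (0.0507 to 0.0531). Ephb6, a receptor with an inactive kinase domain, rose by 2.29 ± 0.60 (adjusted p = 0.00396) in wild-type and 2.29 ± 0.53 (adjusted p = 0.00156) in catalytic-dead cells, from 3 and 1 counts to 2.88, 0.981 and 1.33 CPM in the former. Without naive wild-type library b the wild-type adjusted p was 0.0736. Ephb1 rose in knockout cells by 2.0 ± 0.62 (adjusted p = 0.0167), from 0.13, 0.177 and 0.495 to 2.0, 1.57 and 1.25 CPM, a call lost in 4 of 29 settings, without library a (0.0761) of the formative knockout cells, without library a (0.083) or b (0.0659) of the naive knockout cells and at a prior count of 0.5 (0.0849). Ephb2 was lower in formative knockout than floxed cells by 0.82 (SE 0.26, adjusted p = 0.0268) and lower in naive catalytic-dead than wild-type cells by 1.02 (SE 0.28, adjusted p = 0.0168). The former was lost in 5 of 30 settings, without library a (0.0571), b (0.106) or c (0.0781) of the formative knockout cells and without library a (0.091) or c (0.0765) of the formative floxed cells. The latter was lost in 3 of 30 settings, without library a (0.0525) or c (0.063) of the naive catalytic-dead cells and without library a (0.0924) of the naive wild-type cells.

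**Figure D2:**
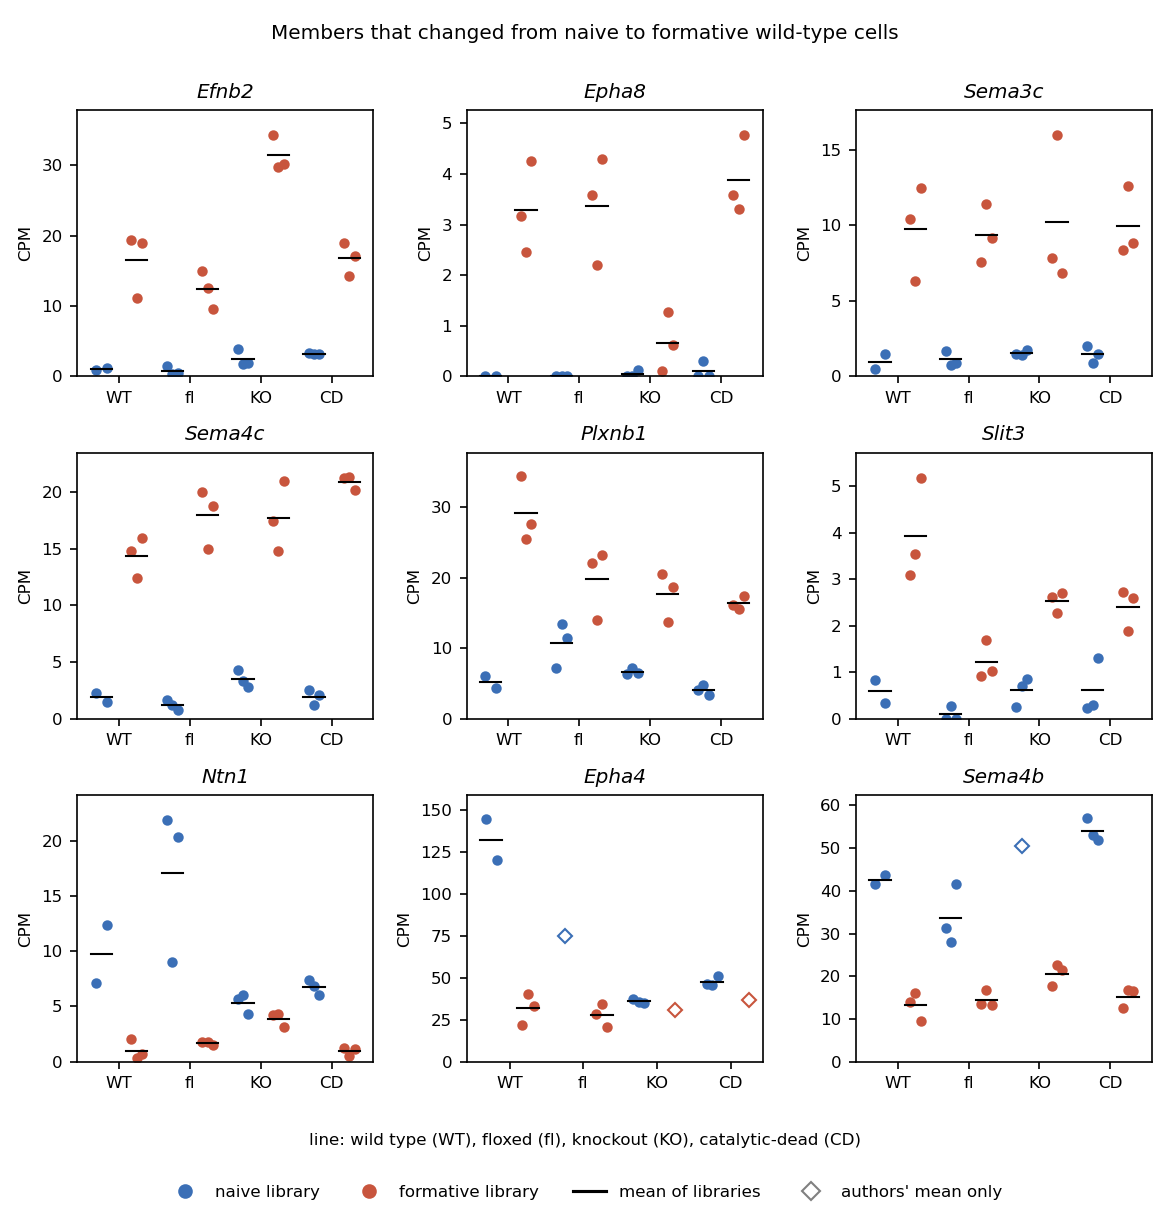
CPM of 9 members in each recovered library, by line and state, with the mean of each group as a bar. Open diamonds are deposited means without library values, with the shared library taken out for formative knockout cells. Formative libraries lay above naive ones in the panels of Efnb2, Sema3c, Sema4c, Plxnb1 and Slit3 and below them in the panel of Sema4b, and Ntn1 fell in the wild-type, floxed and catalytic-dead lines.

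Of the class 3 semaphorins, the secreted ligands of neuropilins, 4 of 6 tested rose and 1 fell in wild-type cells, where 19.7% of all tested genes rose and 12.4% fell. In floxed cells 2 of 5 rose and 1 fell (22.5% and 11.3% of all). The counts were 3 of 5 and 1 in knockout cells (21.6% and 5.59%) and in catalytic-dead cells 5 of 6 and 1 (18.5% and 11.0%). Sema3c (chromosome 5, 17574281 to 17730268), which guides cardiac neural crest cells, had 0.492 and 1.47 (naive) and 10.4, 6.28 and 12.5 (formative) CPM in wild-type libraries and 1.68, 0.769 and 0.906 (naive) and 7.56, 11.4 and 9.14 (formative) CPM in floxed ones. It had 1.49, 1.42 and 1.73 (naive) and 7.82, 16 and 6.86 (formative) CPM in knockout and 2.01, 0.913 and 1.48 (naive) and 8.37, 12.6 and 8.82 (formative) CPM in catalytic-dead cells. All formative libraries were above 6 CPM and all naive ones at or under 2.01 CPM. The log2 increase was 3.14 ± 0.57 (adjusted p = 9.54e-05), 2.9 ± 0.47 (adjusted p = 2.07e-05), 2.48 ± 0.42 (adjusted p = 5.22e-05) and 2.63 ± 0.47 (adjusted p = 8.6e-05) in the 4 lines.

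Sema3e (chromosome 5, 14025276 to 14256689), a ligand that binds plexin D1 without a neuropilin, had the largest formative-minus-naive differences among the semaphorins of the floxed and knockout lines. It went from 2.67 and 1.47 to 27.0, 13.7 and 28.2 CPM in wild-type cells and from 1.45, 1.52 and 1.64 to 28.3, 19.2 and 27.9 CPM in catalytic-dead cells. These are log2 increases of 3.33 ± 0.44 (adjusted p = 3.21e-06) and 3.84 ± 0.48 (adjusted p = 1.65e-06). Naive floxed libraries had 0.745, 0.961 and 2.27 CPM and naive knockout libraries 1.82, 1.42 and 1.86 CPM, while their formative values are known as means only. The means differed by 5.03 (log2 5.51 against 0.48) in floxed and 6.05 (log2 6.97 against 0.92) in knockout cells, and formative knockout exceeded formative floxed cells by 1.46 (log2 6.97 against 5.51) and formative floxed exceeded formative wild-type cells by 1.05 (log2 5.51 against 4.46), all without a test. Of the untested genes, 8.25% in floxed and 8.66% in knockout cells had a formative mean at least 2-fold above the naive one. Plexin D1 is not among the members in the table.

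Sema3a, Sema3d and Sema3f were low genes whose formative levels differed between knockout and floxed cells. Sema3a (chromosome 5, 13125414 to 13602565), the classical repellent that collapses growth cones through Nrp1, had 0 and 0 counts in naive wild-type, 1, 0 and 0 in naive floxed, 3, 2 and 0 in naive knockout and 0, 1 and 1 in naive catalytic-dead libraries. Formative libraries held 0.288, 0.491 and 0.399 CPM in wild-type, 0.229, 0 and 0.280 CPM in floxed, 2.61, 2.57 and 1.04 CPM in knockout and 1.36, 1.61 and 1.45 CPM in catalytic-dead cells. Only in the floxed line did formative and naive libraries overlap. It was at least 2.92-fold higher in formative wild-type cells (adjusted p = 0.0102), 15.8-fold (95% interval 4.13 to 134) higher in catalytic-dead cells (adjusted p = 2.9e-05), and rose by 2.76 ± 0.48 (adjusted p = 6.12e-05) in knockout cells. Formative knockout exceeded formative floxed cells by 2.61 ± 0.49 (adjusted p = 0.000405), and the increase in knockout minus floxed cells was 2.16 ± 0.65 (adjusted p = 0.0325). That difference of increases was lost in 8 of 29 settings, without library a (0.0991) or b (0.0853) of the formative knockout cells, without library b (0.13) of the formative floxed cells, without library c (0.138) of the naive knockout cells, without library a (0.0523) of the naive floxed cells, with the compared groups fitted alone (0.0659), without weights (0.0562) and at a prior count of 0.5 (0.292). The wild-type increase was lost in 2 of 28 settings, without library b (0.0523) of the formative wild-type cells and at a prior count of 0.5 (0.0618).

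Sema3d (chromosome 5, 12383385 to 12588948) had 0.773 and 0.905 (naive) and 0.792, 1.37 and 1.46 (formative) CPM in wild-type libraries, with overlap, and 1, 0 and 1 counts in naive and 8, 4 and 8 in formative floxed libraries. In knockout libraries it had 0, 1 and 2 counts in the naive and 2.21, 3.43 and 1.25 CPM in the formative state, and in catalytic-dead libraries 1, 2 and 1 (naive) and 10, 7 and 11 (formative) counts. The pooled ratio of formative to naive was 27.7-fold (95% interval 8.96 to 138) in knockout cells (adjusted p = 4.7e-06) and 7.79-fold (95% interval 1.89 to 68.8) in floxed cells (adjusted p = 0.0207), and the log2 increase in catalytic-dead cells was 1.53 ± 0.50 (adjusted p = 0.0205). Formative knockout exceeded floxed cells by 1.64 ± 0.50 (adjusted p = 0.0235), and naive floxed cells were below naive wild type by 1.9 (SE 0.52, adjusted p = 0.0261). The floxed increase was lost in 4 of 28 settings, without library a (0.0753) or c (0.0988) of the formative floxed cells, without library b (0.0878) of the naive floxed cells and with size factors (0.0542). The catalytic-dead one was lost in 4 of 28 settings, without library c (0.13) of the formative catalytic-dead cells, without library a (0.0843) or c (0.0586) of the naive catalytic-dead cells and at a prior count of 0.5 (0.0697). The difference between formative knockout and floxed cells was lost in 4 of 29 settings, without library a (0.0651) or b (0.124) of the formative knockout cells and without library a (0.0603) or b (0.0942) of the formative floxed cells, and that between naive floxed and wild-type cells was lost in 4 of 28 settings, without library b (0.0791) of the naive floxed cells, without library a (0.159) or b (0.141) of the naive wild-type cells and at a prior count of 0.5 (0.0694).

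Sema3f (chromosome 9, 107681500 to 107710475), the preferred ligand of Nrp2, had 0.562 and 0.566 (naive) and 3.1, 2.06 and 1.46 (formative) CPM in wild-type, 1.4, 2.02 and 2.11 (naive) and 5.12, 2.96 and 2.8 (formative) CPM in floxed and 1.01, 1.37 and 1.48 (naive) and 3.01, 2.65 and 6.36 (formative) CPM in catalytic-dead cells. Knockout cells had 0.454, 0.621 and 1.24 CPM in the naive and 0.301, 0.428 and 0 CPM in the formative state. The formative knockout libraries were thus the lowest of the formative ones. Sema3f was lower there than in formative floxed cells by 3.2 log2 (SE 0.48, adjusted p = 2.03e-05), a call held in all 30 settings. It rose by 1.59 ± 0.60 (adjusted p = 0.0439) in wild-type and 1.41 ± 0.47 (adjusted p = 0.0237) in catalytic-dead cells, of which the first was lost in 11 of 30 settings, without library a (0.144) or b (0.0566) of the formative wild-type cells, without library a (0.196) or b (0.144) of the naive wild-type cells, with the columns as deposited (0.193), with the compared groups fitted alone (0.0547), at a prior count of 0.5 (0.0686), with size factors (0.0837) and without any 1 of 3 libraries of other groups (0.0501 to 0.0505). The second was lost in 4 of 30 settings, without library c (0.11) of the formative catalytic-dead cells, without library a (0.105) or b (0.0589) of the naive catalytic-dead cells and with the columns as deposited (0.141). Sema3b (chromosome 9, 107597674 to 107609229), a ligand also studied as a tumour suppressor, was the member that fell in all lines. It went from 13.6 and 8.71 to 3.67, 4.32 and 2.39 CPM in wild-type and from 9.78, 14.5 and 8.76 to 6.26, 5.42 and 8.68 CPM in floxed cells. It went from 8.04, 8.87 and 10.0 to 1.8, 2.71 and 2.91 CPM in knockout and from 6.15, 7.15 and 6.73 to 3.22, 1.89 and 3.18 CPM in catalytic-dead cells. No formative library reached a naive one of its own line. The decrease was 1.63 (SE 0.30, adjusted p = 9.83e-05), 0.68 (SE 0.24, adjusted p = 0.0312), 1.8 (SE 0.36, adjusted p = 0.000329) and 1.25 (SE 0.34, adjusted p = 0.00588) in the 4 lines. Formative knockout cells were below formative floxed cells by 1.38 (SE 0.36, adjusted p = 0.00875), and formative floxed above formative wild-type cells by 0.94 ± 0.30 (adjusted p = 0.0408). The floxed decrease was lost in 5 of 30 settings, without library a (0.0904) or b (0.137) of the formative floxed cells, without library b (0.196) of the naive floxed cells, with the compared groups fitted alone (0.0865) and without weights (0.0777). The difference between floxed and wild-type cells was lost in 6 of 30 settings, without library a (0.0642) or c (0.16) of the formative floxed cells, without library a (0.107) or c (0.18) of the formative wild-type cells, with the compared groups fitted alone (0.0801) and with size factors (0.0579). The knockout against floxed difference was lost without formative knockout library a (0.0729).

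The semaphorins of classes 4 to 7, most of them bound to the membrane, were mixed. In wild-type cells 3 of 11 tested rose and 2 fell (45.5% called, against 32.1% of all tested genes). In floxed cells 2 of 11 rose and 2 fell (36.4%, against 33.9%), in knockout cells 3 of 10 and 1 (4 of 10 called, against 27.2%) and in catalytic-dead cells 3 of 12 and 2 (41.7%, against 29.5%). Sema4c (chromosome 1, 36548639 to 36558349), a ligand of plexin B2, had 2.32 and 1.47 (naive) and 14.8, 12.4 and 15.9 (formative) CPM in wild-type, 1.68, 1.25 and 0.755 (naive) and 20.0, 15 and 18.8 (formative) CPM in floxed, 4.28, 3.37 and 2.85 (naive) and 17.4, 14.8 and 21.0 (formative) CPM in knockout and 2.57, 1.22 and 2.13 (naive) and 21.2, 21.3 and 20.2 (formative) CPM in catalytic-dead libraries. The formative libraries were all above 12 CPM and the naive ones all under 5 CPM. The log2 increase was 2.82 ± 0.34 (adjusted p = 3.28e-07), 3.7 ± 0.34 (adjusted p = 5.09e-09), 2.28 ± 0.25 (adjusted p = 6.24e-08) and 3.33 ± 0.32 (adjusted p = 1.48e-08) in this order. Naive knockout exceeded naive floxed cells by 1.41 ± 0.38 (adjusted p = 0.00925), and the increase was smaller in knockout than floxed cells by 1.42 (SE 0.42, adjusted p = 0.0316). That difference was lost in 8 of 30 settings, without library a (0.0501) or b (0.0638) of the formative knockout cells, without library a (0.0576) of the formative floxed cells, without library a (0.102) or b (0.0535) of the naive knockout cells, without library b (0.0548) or c (0.121) of the naive floxed cells and with the compared groups fitted alone (0.0546). Leaving out naive floxed library c also ended the naive call (0.0604).

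Sema4d (chromosome 13, 51685529 to 51793747), the ligand of Plxnb1, and Plxnb1 itself both rose in all 4 lines. Sema4d had 4.85 and 5.09 (naive) and 13.3, 11.9 and 13.4 (formative) CPM in wild-type cells, 9.41, 4.81 and 6.04 (naive) and 14, 9.74 and 12.3 (formative) CPM in floxed, 3.57, 3.55 and 3.59 (naive) and 8.02, 6.85 and 12.3 (formative) CPM in knockout and 4.47, 3.8 and 4.76 (naive) and 8.16, 7.09 and 14.0 (formative) CPM in catalytic-dead cells. Formative libraries exceeded naive ones in each line, by a small margin in floxed cells. The log2 increase was 1.33 ± 0.30 (adjusted p = 0.000986), 0.85 ± 0.25 (adjusted p = 0.00972), 1.25 ± 0.31 (adjusted p = 0.003) and 1.07 ± 0.31 (adjusted p = 0.0105). Without naive floxed library b the floxed call was lost (0.0763), and without formative catalytic-dead library c, the one shared between deposited columns, the catalytic-dead call (0.063). Plxnb1 (chromosome 9, 109095389 to 109119917), a receptor of Sema4d, had 6.11 and 4.41 (naive) and 34.4, 25.5 and 27.6 (formative) CPM in wild-type, 7.17, 13.5 and 11.5 (naive) and 22.1, 14.1 and 23.2 (formative) CPM in floxed, 6.35, 7.19 and 6.56 (naive) and 20.6, 13.8 and 18.7 (formative) CPM in knockout and 4.14, 4.87 and 3.45 (naive) and 16.2, 15.6 and 17.5 (formative) CPM in catalytic-dead cells. Formative wild-type libraries were the highest of the 4 lines. The increases were 2.43 ± 0.29 (adjusted p = 2.36e-07), 0.89 ± 0.23 (adjusted p = 0.00303), 1.36 ± 0.25 (adjusted p = 0.000165) and 1.95 ± 0.31 (adjusted p = 2.59e-05), and formative catalytic-dead cells were below formative wild type by 0.81 (SE 0.20, adjusted p = 0.00987), a call lost without formative wild-type library a (0.0765).

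Sema4b (chromosome 7, 80186841 to 80226527) fell where Sema4c and Sema4d rose. It went from 41.5 and 43.6 to 14, 16.1 and 9.56 CPM in wild-type, from 31.3, 27.9 and 41.5 to 13.4, 16.7 and 13.2 CPM in floxed and from 57.0, 53.1 and 51.8 to 12.5, 16.7 and 16.5 CPM in catalytic-dead cells, with 17.7, 22.6 and 21.4 CPM in formative knockout cells. Naive libraries lay far above formative ones in the 3 lines with both. The decrease was 1.7 (SE 0.21, adjusted p = 8.53e-07), 1.19 (SE 0.19, adjusted p = 2.61e-05) and 1.82 (SE 0.19, adjusted p = 9.25e-08), and the untested difference of means in knockout cells was -1.29 (log2 4.37 against 5.66). Sema4f fell by 1.33 in wild-type (SE 0.38, adjusted p = 0.00711) and 0.81 in catalytic-dead cells (SE 0.31, adjusted p = 0.0452), the latter lost in 13 of 30 settings, without library a (0.177) or c (0.142) of the formative catalytic-dead cells, without library a (0.26) of the naive catalytic-dead cells, with the compared groups fitted alone (0.0597), without weights (0.0783), at a prior count of 0.5 (0.0508) and without any 1 of 7 libraries of other groups (0.0502 to 0.0518). The wild-type call of Sema4f was lost without library a of the naive wild type (0.0524). Sema4a, a ligand also found on immune cells, was at 1.82, 2.84 and 2.6 CPM in naive knockout against 13.1, 5.38 and 10.4 CPM in naive floxed libraries, lower by 1.84 (SE 0.38, adjusted p = 0.0009). It rose in knockout cells to 7.62, 7.71 and 7.28 CPM, by 1.58 ± 0.41 (adjusted p = 0.00408), and the change there minus that in floxed cells was 2.08 ± 0.51 (adjusted p = 0.00831).

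Sema5a (chromosome 15, 32244810 to 32696341), which binds heparan sulfate proteoglycans, changed in opposite directions in different lines. It rose in wild-type cells from 4.35 and 4.41 to 11.5, 9.03 and 7.04 CPM, by 1.0 ± 0.36 (adjusted p = 0.0334). In floxed cells it fell from 18.6, 15.8 and 12.1 to 7.18, 6.6 and 4.67 CPM, by 1.31 (SE 0.28, adjusted p = 0.00052), and in knockout cells from 23.1, 25.0 and 18.9 to 11.4, 6.85 and 14.6 CPM, by 1.07 (SE 0.26, adjusted p = 0.00239). Catalytic-dead cells had 8.72, 3.35 and 3.94 (naive) and 6.37, 5.3 and 8.24 (formative) CPM, which overlap. The naive libraries of the floxed and knockout lines were above the naive ones of the other lines, and naive floxed exceeded naive wild-type cells by 1.75 ± 0.35 (adjusted p = 0.00181). The wild-type rise was lost without library a (0.179) or b (0.0971) of the naive or library a (0.129) or b (0.051) of the formative wild-type cells and with size factors (0.0794), and the floxed against wild-type difference without library a of the naive wild type (0.0559). Sema6a, a transmembrane ligand of A-type plexins, could be tested only in part. Its naive libraries had 3.51 and 3.85 CPM in wild-type, 3.45, 3.94 and 6.34 CPM in floxed and 2.98, 3.19 and 3.22 CPM in knockout cells, and the differences of means to formative cells were 4.05 (log2 6.0 against 1.96), 3.72 (log2 5.93 against 2.21) and 5.04 (log2 6.78 against 1.74). In catalytic-dead cells it rose from 5.03, 4.72 and 4.59 to 11.7, 13.6 and 8.09 CPM, by 1.16 ± 0.28 (adjusted p = 0.00302), and the mean difference to formative wild-type cells was -2.53 (log2 3.47 against 6.0), without a test. Sema6c was lower in naive knockout (2.46, 1.86 and 1.73 CPM) than naive floxed cells (11.4, 6.34 and 7.25 CPM), by 1.91 (SE 0.33, adjusted p = 0.000114).

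Among the plexins, the receptors of semaphorins, Plxna1 and Plxna3 rose in some of the lines. Plxna1 (chromosome 6, 89316314 to 89362620), the main partner of the neuropilins, had 21.6 and 25.7 (naive) and 40.3, 38.9 and 41.6 (formative) CPM in wild-type cells, 18.1, 13.6 and 16.6 (naive) and 31.6, 31.4 and 38.9 (formative) CPM in knockout and 36.3, 36.5 and 36.4 (naive) and 47.9, 30.6 and 44.1 (formative) CPM in catalytic-dead cells, and 24.9, 17.8 and 22.5 CPM in naive floxed cells. It rose by 0.77 ± 0.20 (adjusted p = 0.00375) in wild-type and 1.07 ± 0.19 (adjusted p = 0.000118) in knockout cells, and naive catalytic-dead exceeded naive wild-type cells by 0.62 ± 0.20 (adjusted p = 0.0476). The wild-type rise was lost without library a of the naive wild type (0.065), and the catalytic-dead difference was lost in 17 of 30 settings, without library a (0.0953), b (0.0978) or c (0.0968) of the naive catalytic-dead cells, without library a (0.289) or b (0.0537) of the naive wild-type cells, with the columns as deposited (0.0655), with the compared groups fitted alone (0.0579), at a prior count of 0.5 (0.0509), with size factors (0.136) and without any 1 of 8 libraries of other groups (0.0503 to 0.0577). Plxna3 rose by 1.29 ± 0.40 (adjusted p = 0.0162) in knockout and 1.87 ± 0.46 (adjusted p = 0.00288) in catalytic-dead cells, and its means differed by 1.08 (log2 3.04 against 1.97) in wild-type cells, untested. The knockout rise of Plxna3 was lost without formative library a (0.0988) or naive library a (0.16) and with size factors (0.0662). Plxnc1, the receptor of Sema7a, rose in wild-type cells by 1.65 ± 0.47 (adjusted p = 0.00766), from 2.95 and 0.792 to 6.41, 3.73 and 6.38 CPM, a call lost without naive wild-type library b (0.238). Plxna2 and Plxnb2 had no call, with group means of 0.27 to 1.56 and 4.74 to 6.04 log2 CPM.

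Both neuropilins were higher in formative knockout than in formative floxed cells. Nrp2 (chromosome 1, 62703285 to 62818695), the receptor of Sema3f and of lymphatic growth factors, had 13.3 and 14.1 (naive) and 5.83, 6.48 and 6.78 (formative) CPM in wild-type cells and 4.38, 5.19 and 5.29 (naive) and 2.14, 2.12 and 2.52 (formative) CPM in floxed cells. In knockout cells it had 8.17, 7.01 and 4.95 CPM in the naive and 28.7, 22.7 and 29.5 CPM in the formative state, and in catalytic-dead cells 8.5, 4.56 and 6.56 (naive) and 6.58, 6.05 and 5.35 (formative) CPM. The formative floxed libraries were the lowest of all and the formative knockout ones the highest. Nrp2 fell by 1.09 log2 in wild-type (SE 0.23, adjusted p = 0.000494) and 1.07 in floxed cells (SE 0.31, adjusted p = 0.00771), and rose by 1.99 ± 0.20 (adjusted p = 1.53e-08) in knockout cells. Formative knockout exceeded formative floxed cells by 3.46 ± 0.26 (adjusted p = 4.8e-10), and the change in knockout minus that in floxed cells was 3.06 ± 0.36 (adjusted p = 2.93e-06). Floxed cells were below wild type by 1.44 in the naive (SE 0.25, adjusted p = 0.000337) and 1.42 in the formative state (SE 0.29, adjusted p = 0.0017), and naive catalytic-dead cells by 1.09 (SE 0.24, adjusted p = 0.00382). With the columns as deposited these 3 differences and both decreases were lost (adjusted p of 0.0764 to 0.197), while the 3 results in the knockout line passed in all 30 settings.

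Nrp1, the receptor of Sema3a, had 0.492 and 0.226 (naive) and 0.576, 0.0981 and 0.266 (formative) CPM in wild-type, 0.186, 0.769 and 0.604 (naive) and 0.0764, 0.677 and 0.373 (formative) CPM in floxed, 0.908, 0.710 and 0.619 (naive) and 3.51, 3.43 and 2.5 (formative) CPM in knockout and 0.671, 1.22 and 0.984 (naive) and 0.787, 1.04 and 1.01 (formative) CPM in catalytic-dead libraries. The 3 formative knockout libraries stood above the other 20. It rose in knockout cells by 1.81 ± 0.43 (adjusted p = 0.00185), and formative knockout exceeded formative floxed cells by 2.66 ± 0.46 (adjusted p = 0.000155). The change in knockout minus that in floxed cells, 2.18 ± 0.70 (adjusted p = 0.0483), was lost in 22 of 29 settings, without library a (0.091) or b (0.0811) of the formative knockout cells, without library a (0.151) or c (0.0688) of the formative floxed cells, without library a (0.0742), b (0.0858) or c (0.0937) of the naive knockout cells, without library b (0.106) or c (0.104) of the naive floxed cells, with the columns as deposited (0.176), with the compared groups fitted alone (0.085), at a prior count of 0.5 (0.0943), with size factors (0.0707) and without any 1 of 9 libraries of other groups (0.05 to 0.0568). Sema3a and Nrp1, a ligand and its receptor, were thus both higher in formative knockout cells, while Nrp2 was higher and its ligand Sema3f lower.

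**Figure D3:**
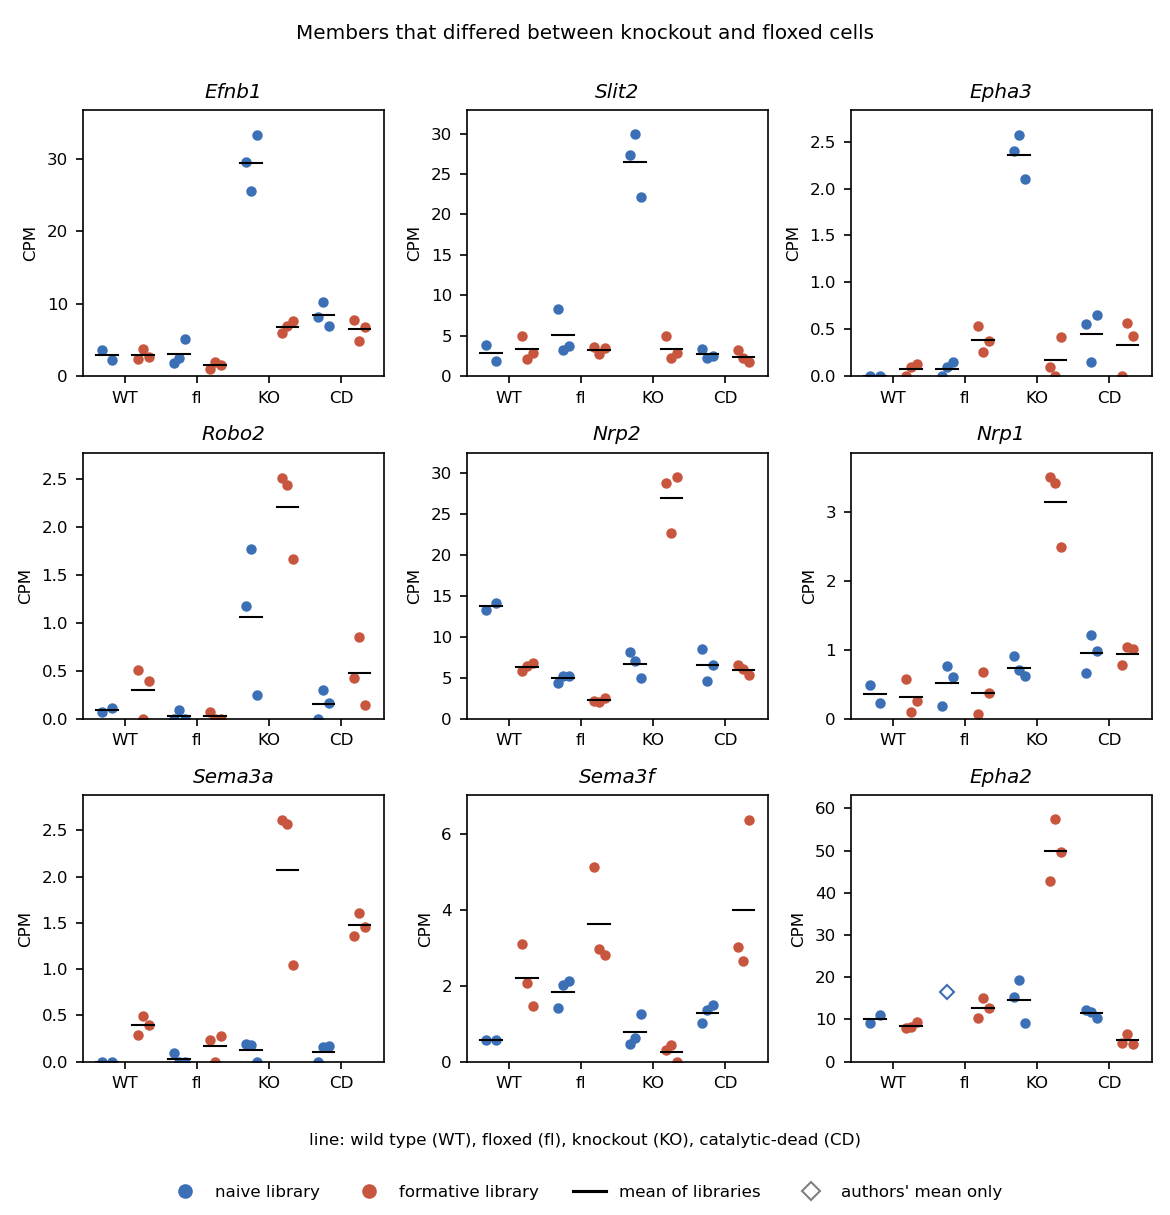
CPM of 9 members in each recovered library, by line and state, with the mean of each group as a bar; an open diamond is a deposited mean without library values. Efnb1, Slit2 and Epha3 were highest in the naive knockout libraries and Nrp2, Nrp1, Robo2 and Epha2 in the formative ones, while Sema3f was lowest in formative knockout cells.

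Of the Slits, Slit3 rose on differentiation and Slit2 stood out in naive knockout cells. Slit3 (chromosome 11, 35121224 to 35708507) had 0.843 and 0.339 (naive) and 3.1, 3.53 and 5.18 (formative) CPM in wild-type cells, 0.259, 0.710 and 0.866 (naive) and 2.61, 2.28 and 2.7 (formative) CPM in knockout and 0.224, 0.304 and 1.31 (naive) and 2.72, 1.89 and 2.6 (formative) CPM in catalytic-dead cells. Floxed libraries held 0, 3 and 0 counts in the naive and 0.916, 1.69 and 1.03 CPM in the formative state. Formative libraries exceeded naive ones in each line. The log2 increase was 2.42 ± 0.54 (adjusted p = 0.00099) in wild-type, 1.83 ± 0.52 (adjusted p = 0.0087) in knockout and 1.9 ± 0.51 (adjusted p = 0.00577) in catalytic-dead cells, and in floxed cells the pooled ratio was 11.2-fold (95% interval 3.57 to 56.3) (adjusted p = 0.000202). The knockout increase was lost without naive library a (0.0742) and the catalytic-dead one without naive library a (0.0599). Formative floxed cells were below formative wild type by 1.55 (SE 0.40, adjusted p = 0.0124), a call lost in 3 of 30 settings, without library a (0.0621) of the formative floxed cells, without library c (0.053) of the formative wild-type cells and without weights (0.0521). The naive knockout exceeded the naive floxed group by 5.06-fold (95% interval 1.49 to 26.7) (adjusted p = 0.0458), with groups that overlapped, a call lost in 10 of 29 settings, without library b (0.161) or c (0.198) of the naive knockout cells, without library a (0.164) or c (0.162) of the naive floxed cells and without any 1 of 6 libraries of other groups (0.0502 to 0.0527).

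Slit2 (chromosome 5, 47983138 to 48307733), a repellent at the nervous system midline, had 27.3, 29.9 and 22.2 CPM in the naive knockout libraries and 5.01, 2.28 and 2.91 CPM in the formative ones. Wild-type libraries had 3.86 and 1.92 CPM in the naive and 4.97, 2.16 and 2.92 CPM in the formative state, floxed ones 8.38, 3.27 and 3.78 (naive) and 3.59, 2.79 and 3.45 (formative) CPM, and catalytic-dead ones 3.35, 2.28 and 2.46 (naive) and 3.22, 2.27 and 1.73 (formative) CPM. All 20 libraries outside the naive knockout group were at or under 8.38 CPM. Slit2 was higher in naive knockout than naive floxed cells by 2.43 ± 0.28 (adjusted p = 3.38e-07), and it fell in knockout cells by 2.95 (SE 0.33, adjusted p = 1.35e-07). The change in knockout minus that in floxed cells was -2.44 ± 0.49 (adjusted p = 0.00146). Slit1 fell in wild-type cells by 2.24 (SE 0.73, adjusted p = 0.0194), from 1.12 and 2.26 to 0.0720, 0 and 0.797 CPM, a call lost without naive library b (0.142) or formative library a (0.0877) or b (0.11).

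Of the Robo receptors, Robo2 differed between knockout and floxed cells and Robo1 between catalytic-dead and wild-type cells. Robo2 (chromosome 16, 73891839 to 74411825) had 0, 1 and 0 counts in naive and 1, 0 and 0 in formative floxed libraries, against 1.17, 1.77 and 0.248 CPM in naive and 2.51, 2.43 and 1.66 CPM in formative knockout libraries. It had 1 and 1 (naive) and 7, 0 and 3 (formative) counts in wild-type and 0, 2 and 1 (naive) and 6, 9 and 1 (formative) counts in catalytic-dead libraries. No knockout library overlapped a floxed one of its state, and naive knockout library c, the lowest, had 0.248 CPM. The pooled ratio of knockout to floxed was 31.9-fold (95% interval 5.41 to 1290) in the naive (adjusted p = 0.000766) and 81.7-fold (95% interval 14.0 to 3290) in the formative state (adjusted p = 2.09e-06). Robo1 (chromosome 16, 72308306 to 73046095) had 12.3, 10.8 and 11.3 CPM in naive catalytic-dead against 4.78 and 2.26 CPM in naive wild-type libraries, and 3.44, 4.92 and 4.48 against 5.98, 3.83 and 8.37 CPM in the formative state. Its values were 1.86, 2.5 and 2.42 (naive) and 2.83, 1.02 and 1.31 (formative) CPM in floxed and 6.29, 4.17 and 5.2 (naive) and 4.31, 1.43 and 4.78 (formative) CPM in knockout cells. The naive catalytic-dead libraries were the highest of all. Robo1 was higher there than in naive wild-type cells by 1.73 ± 0.37 (adjusted p = 0.00253) and fell in catalytic-dead cells by 1.39 (SE 0.32, adjusted p = 0.00157). Formative floxed cells were below formative wild type by 1.75 (SE 0.40, adjusted p = 0.00493). The change in catalytic-dead minus that in wild-type cells was -2.16 ± 0.50 (adjusted p = 0.0131), the 1 member called among 51 tested (1.96%), where 3.43% of all tested genes were. It was lost without naive wild-type library b (0.085), as was the naive difference (0.0584).

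Ntn1 (chromosome 11, 68209364 to 68400823), the founding netrin and also a survival factor, fell in 3 lines. It went from 7.16 and 12.4 to 2.02, 0.294 and 0.664 CPM in wild-type, from 21.9, 9.04 and 20.4 to 1.76, 1.78 and 1.49 CPM in floxed and from 7.38, 6.85 and 6.07 to 1.22, 0.473 and 1.16 CPM in catalytic-dead cells. In knockout cells the naive libraries had 5.64, 6.03 and 4.33 CPM and the formative ones 4.21, 4.28 and 3.12 CPM. The formative knockout libraries were the highest of the formative ones, and the naive knockout libraries were below all naive floxed ones. The decrease was 3.29 log2 in wild-type (SE 0.51, adjusted p = 1.32e-05), 3.11 in floxed (SE 0.42, adjusted p = 1.51e-06) and 2.67 in catalytic-dead cells (SE 0.55, adjusted p = 0.00044), and the difference in knockout cells was -0.44 ± 0.41 (adjusted p = 0.476). The change in knockout minus that in floxed cells was 2.66 ± 0.58 (adjusted p = 0.00349). Naive knockout cells were below naive floxed cells by 1.56 (SE 0.30, adjusted p = 0.000438). Its receptor Unc5a rose in floxed cells, with a pooled ratio of 15.6-fold (95% interval 5.08 to 77.7) (adjusted p = 0.00255), from 1, 0 and 2 to 6, 35 and 19 counts, a call lost with a prior count of 0.5 (0.0537). Unc5b, another netrin receptor, had a mean difference of 1.72 (log2 7.42 against 5.71) in wild-type cells, untested, where 8.91% of the 4364 untested genes had a formative mean at least 2-fold higher and 3.99% a mean at least 2-fold lower. Dcc, the attractive netrin receptor, was not matched in the table, and its relative Neo1 stood at 38.0 to 57.9 CPM in the 8 groups.

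By comparison of lines, the knockout differed from the floxed line in 11 of 48 tested members in the naive state, 8 higher and 3 lower (22.9%), where 18.0% of all tested genes were called (8.46% higher, 9.58% lower). In the formative state 9 of 48 were higher and 4 lower (27.1%), against 17.6% of all tested genes (10.9% higher, 6.66% lower). Efnb1, Efnb2 and Robo2 were higher in both states. The increase or decrease on differentiation differed between knockout and floxed cells in 10 of 43 tested members, 5 in each direction (23.3%), against 9.11% (5.58% and 3.54%). Without formative knockout library a, the formative count was 8 and the count of differing changes 6. State markers also differed between these lines. In naive knockout cells the formative marker Otx2 was higher by 1.98 log2, and Sox3 was lower by 2.36 and Foxd3 by 1.72. In formative knockout cells Lef1 was higher by 2.76, Fgf5 by 1.53 and Foxd3 by 1.29. Of the naive markers, Nr0b1 was higher there by 2.13 and Dppa3 lower by 1.71. What part the state of the cells had in the members' differences was not tested. In the fibroblast list, 5 of 8 markers were in the table and summed to 97.8 CPM in naive and 648.0 CPM in formative knockout cells, against 10.1 and 36.3 CPM in floxed cells. Of this Acta2 made up 95.9 and 637.0 CPM in the knockout line, and Thy1 was under 1 CPM in both states there and in naive floxed cells. The other fibroblast markers were split in formative knockout against floxed cells. Col1a2 was higher by 2.71 log2 and Col1a1 by 1.43 (adjusted p of 0.000281 and 0.0337). Thy1 was lower by 4.17 and Dcn by 2.42 (adjusted p of 2.81e-07 and 1.46e-05). Col1a2 was also higher in naive knockout cells, by 1.9 (adjusted p = 0.00594). In the endothelial list, 5 of 10 were in the table. They summed to 242.0 and 56.9 CPM in knockout and 138.0 and 49.7 CPM in floxed cells, led by Pecam1 save in formative knockout cells. Kdr was higher in formative knockout cells by 2.82 log2, Tek by 2.28 and Flt1 by 0.82 (adjusted p of 0.000392 to 0.00164). In naive knockout cells Tek was higher by 1.65 (adjusted p = 0.00113) and Kdr lower by 2.6 (adjusted p = 0.00037). The 6 primitive endoderm markers in the table summed to 63.0 and 57.7 CPM in knockout against 18.9 and 23.2 CPM in floxed cells. In the naive state 3 of these 6 were higher, Dab2 by 3.3 log2 (SE 0.33, adjusted p = 5.85e-08), Foxa2 by 2.75 (SE 0.46, adjusted p = 7.62e-05) and Col4a1 by 1.7 (SE 0.24, adjusted p = 7.3e-06). Foxa2 and Col4a1 were also higher in the formative state. The 5 trophoblast markers in the table summed to 157.0 and 29.9 CPM in knockout and 80.0 and 24.1 CPM in floxed cells, with Tfap2c the highest in each of the 4 groups. Cdx2 was higher in naive knockout cells by 2.73 (SE 0.67, adjusted p = 0.00424) and Krt7 by 2.24 (SE 0.54, adjusted p = 0.0033). Cdx2 and Gata3 were higher in formative knockout cells. The 6 mesendoderm markers in the table summed to 27.4 and 17.5 CPM in knockout and 22.6 and 20.8 CPM in floxed cells. Within these sums markers moved in both directions. Wnt3 was higher in naive knockout cells by 3.63 log2 (SE 0.43, adjusted p = 6.72e-07). Eomes was lower there by 2.85 (SE 0.41, adjusted p = 8.87e-06). T was lower in formative knockout cells by 1.9 (SE 0.55, adjusted p = 0.0162). The part of such cells in these differences was not tested.

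**Figure D4:**
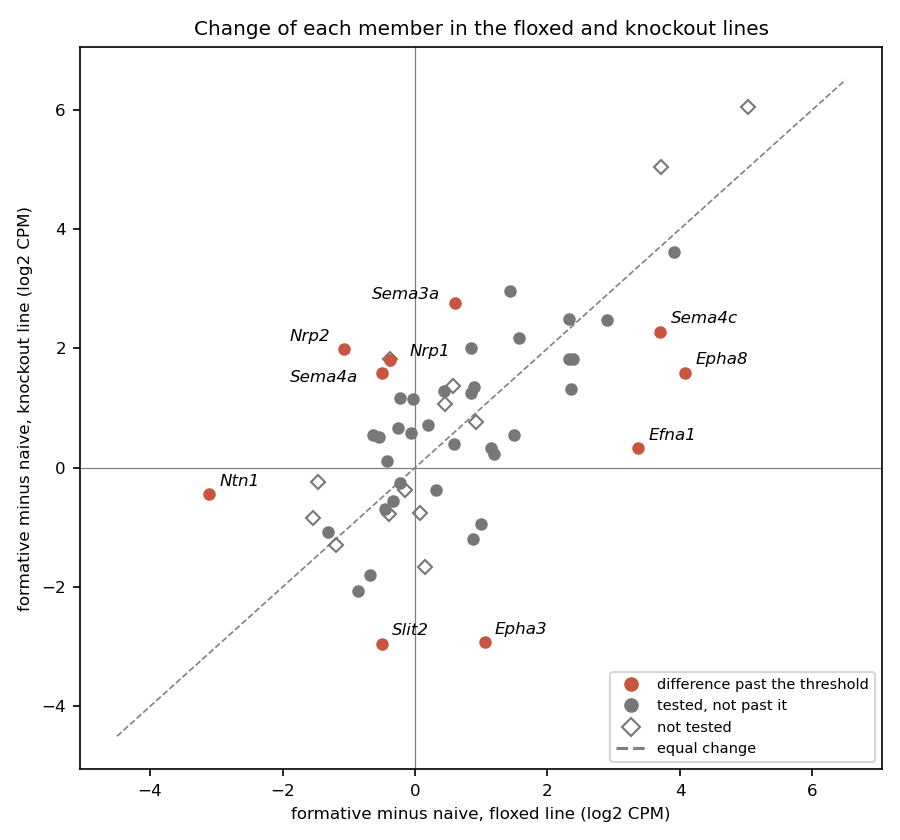
Formative-minus-naive difference of each member in the floxed line (horizontal) and the knockout line (vertical), in log2 CPM. Red points are the 10 members whose change differed between these lines past the threshold, grey points were tested and did not pass, open diamonds could not be tested, and the dashed line marks equal change. Nrp2, Nrp1, Sema3a, Sema4a and Ntn1 lay above the dashed line and Efna1, Epha8, Sema4c, Epha3 and Slit2 below it.

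The catalytic-dead line differed from wild type in 8 of 54 tested members in the naive state, 4 higher and 4 lower (14.8%), against 11.1% of all tested genes (6.43% and 4.68%). With size factors 2 were higher and 5 lower, again without the share of all genes under that scaling. Higher were Efnb1, Epha3, Robo1 and Plxna1, and lower were Epha4, Ephb2, Ephb3 and Nrp2. In the formative state 3 of 51 differed (5.88%), against 8.25% of all tested genes (4.82% higher, 3.43% lower), with Efnb1 higher and Ephb3 and Plxnb1 lower. The naive count was 4 without library a of the naive wild type and 5 without its library b or without library a or c of the catalytic-dead cells. Without naive wild-type library a the calls of Efnb1, Epha3, Ephb2, Ephb3 and Plxna1 were lost. Those of Efnb1, Epha3, Plxna1 and Robo1 were lost without library b. The counts without either wild-type library thus include members other than those named. The formative count was 0 without formative wild-type library a and 1 without its library c or without library a or c, the shared one, of the catalytic-dead cells. Markers of other cells also differed between the catalytic-dead and wild-type lines. The 6 primitive endoderm markers summed to 71.6 CPM in naive catalytic-dead cells, against 21.6 CPM in naive wild type. In the naive state Dab2 was higher by 3.84 log2 (SE 0.33, adjusted p = 2.2e-08) and Col4a1 by 1.05 (SE 0.28, adjusted p = 0.0164). Lama1 was lower by 1.47 (SE 0.38, adjusted p = 0.0124). In the formative state Dab2 was higher by 0.78 (SE 0.21, adjusted p = 0.0153), the 1 of these 6 that passed. The fibroblast markers summed to 43.4 and 90.1 CPM in catalytic-dead and 7.34 and 23.7 CPM in wild-type cells. Acta2 was higher in the naive state by 2.83 (SE 0.25, adjusted p = 3.88e-07) and Thy1 lower, and Col1a2 and Dcn were higher in the formative state. The 6 mesendoderm markers summed to 70.3 CPM in formative wild-type, 14 CPM in formative catalytic-dead and 20.8 CPM in formative floxed cells. Evx1, T, Eomes and Wnt3 were lower than in formative wild type in both of these lines. They were lower by 2.28 (Wnt3) to 3.27 (Evx1) log2 in catalytic-dead and 1.58 (Wnt3) to 4.2 (Evx1) in floxed cells. The part of such cells in the members' differences was not tested. The floxed line differed from wild type in 3 of 52 tested members in the naive (5.77%, against 5.18% with 1.98% higher and 3.2% lower) and 4 of 48 in the formative state (8.33%, against 9.52% with 4.21% higher and 5.31% lower). In the formative state Nrp2, Slit3 and Robo1 were lower and Sema3b higher. The naive count was 1 without library a of the naive wild type and 5 without naive floxed library a, and the formative count 2 without formative wild-type library c. With size factors 0 were higher and 3 lower in the formative state, also without the share of all genes under that scaling.

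Members without library values, and Robo4, which did not pass the filter on low counts, can be read only against the other untested genes. The measure is a deposited mean at least 2-fold higher or lower, with the shared library taken out of the formative knockout mean. In the formative state of wild-type, floxed, knockout and catalytic-dead cells, 8.91%, 8.25%, 8.66% and 6.27% of untested genes were that much higher and 3.99%, 6.96%, 4.69% and 5.86% that much lower than in the naive state. Of the 4 untested members in wild-type cells 3 were higher and 1 lower, of 10 in floxed cells 2 and 2, of 11 in knockout cells 3 and 2, and of 3 in catalytic-dead cells 0. In knockout against floxed cells 1 of 8 untested members was higher and 1 lower in the naive state, where 3.07% of untested genes were higher and 3.58% lower. In the formative state 1 of 8 was higher (3.63% and 2.43%). In catalytic-dead against wild-type cells none of 2 passed that fold in the naive state (3.16% and 1.38%), and 1 of 5 was higher and 1 lower in the formative state (2.06% and 1.52%). In floxed against wild-type cells 1 of 4 was lower in the naive (1.6% and 1.2%) and 1 of 8 higher in the formative state (1.84% and 1.96%).

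The partners of these ligands and receptors changed as well. Of a list of guidance co-receptors and other cues, 24 of 30 genes were in the table. In wild-type cells 8 of the 23 tested rose and 4 fell (52.2%, against 32.1% of all tested genes), with a median difference of 0.12 log2, against 0.16. Cxcl12, a chemokine that guides migrating cells, rose by 4.68 log2 (SE 0.55, adjusted p = 1.93e-07), Nrcam, a cell adhesion molecule of axons, by 3.97 (SE 0.60, adjusted p = 8.56e-06) and Met, the receptor of hepatocyte growth factor, by 2.93 (SE 0.33, adjusted p = 1.39e-07). Kdr, a vascular growth factor receptor that pairs with neuropilins, fell by 3.24 (SE 0.45, adjusted p = 2.9e-06). In knockout cells Kdr rose by 2.49 (SE 0.52, adjusted p = 0.000577), and its change there minus that in floxed cells was 5.42 (SE 0.73, adjusted p = 1.48e-05). Of the 20 tested in each MLL3KO line, 7 rose and 4 fell in floxed (55.0%, against 33.9% of all tested genes) and 8 rose and 2 fell in knockout cells (50.0%, against 27.2%). In catalytic-dead cells 7 of 22 rose and 3 fell (45.5%, against 29.5%).

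Of a list of 61 genes that carry guidance signals inside the cell, 58 were in the table. In wild-type cells 13 of 41 tested rose and 4 fell (41.5%, against 32.1% of all tested genes), with a median of 0.35 log2, against 0.16. In floxed cells 12 rose and 4 fell of 34 (47.1%, against 33.9%), and in knockout cells 13 and 3 of 36 (44.4%, against 27.2%). In catalytic-dead cells 13 rose and 1 fell of 40, or 35.0%, near the 29.5% of all tested genes. Crmp1 and Dpysl5, collapsin response mediators that act below semaphorin receptors, rose in wild-type cells by 2.3 (SE 0.34, adjusted p = 6.26e-06) and 2.78 (SE 0.37, adjusted p = 1.77e-06). Grip1, a scaffold that binds ephrin-B tails, rose by 2.68 (SE 0.32, adjusted p = 3.03e-07). Rnd1, a protein that binds plexins, fell by 2.49 (SE 0.27, adjusted p = 6.07e-08). Between knockout and floxed cells 5 of 36 were higher and 6 lower in the naive state (30.6%, against 18.0% of all tested genes) and 7 of 35 higher and 1 lower in the formative state (22.9%, against 17.6%). Vav3, an exchange factor used by Eph receptors, was higher in naive knockout cells by 2.49 (SE 0.45, adjusted p = 0.000187), and Trio, an exchange factor below netrin receptors, in formative knockout cells by 1.38 (SE 0.24, adjusted p = 0.000124).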

How the data were processed

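RNA of 24 samples was measured as 3′ tags (QuantSeq FWD libraries, single-end reads, per the labels' protocols). The submitters' processing notes name cutadapt 2.5, STAR, featureCounts of Subread 1.6.4, DESeq2 1.34.0 and mm10; strand setting and the making of the group columns are not given in the sources used here. The deposited table holds, for 16617 genes, 8 group means as log2 CPM, where CPM divides each count by the size of its library, and the values show a prior count of 2, in proportion to library size.

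Whole counts of single libraries were solved for from the 9 decimals of these means, which gave 23 library sizes. A gene's split was accepted where at most 0.3 solutions were expected by chance, and genes with no solution or several were left unsplit. Each library was sought within a window around the group mean, which narrowed to 1 log2 for genes with many counts. For those genes the spread between libraries, and so the SE, was bounded by this choice. Log2 CPM of the recovered counts was fitted over 8 groups with limma 3.58.1 (R 4.3.3), with weights from a lowess of spread on level (span 0.3), a trended prior and Benjamini-Hochberg adjustment over all genes tested per comparison, at a threshold of 0.05. Genes needed the CPM of 10 counts at the median size in 3 libraries, and 16539 passed. Values are library CPM, and log2 differences are given ± SE. Replicates were cultured, collected and prepared separately per the series' design. Pooled count ratios have exact 95% intervals, and a group at 0 is set to 3 counts over the group. Counting intervals cover counting error only.

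Coordinates are from GENCODE vM21 (GRCm38). Named genes are members with at least 3 calls among the 10 comparisons, or called in both states of a genotype comparison, in full, and the other called members in brief. The members and lists were chosen with earlier results of these data known. Alternatives were another prior count, other filters, no weights, size factors, fewer groups, the columns as deposited and each library left out. The fit was tested on simulated data.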

Additional observations from a re-analysis of the deposited data

Results flagged for a closer look

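The change from naive to formative cells differed between the knockout and the floxed line in 10 members, by limma's test of the difference itself with Benjamini-Hochberg adjustment. Of all genes so tested, 9.11% differed. The knockout change exceeded the floxed one by 3.06 log2 for Nrp2, 2.66 for Ntn1, 2.18 for Nrp1, 2.16 for Sema3a and 2.08 for Sema4a. The difference was -3.97 for Epha3, -3.05 for Efna1, -2.48 for Epha8, -2.44 for Slit2 and -1.42 for Sema4c. Between the catalytic-dead and wild-type lines it was -2.16 for Robo1, the 1 member called, where 3.43% of all tested genes were. The Robo1 call was lost without naive wild-type library b (adjusted p = 0.085). The Nrp1 call was lost in 22 of 29 other settings, and those of Sema3a, Sema4c and Epha8 in fewer.

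Groups of 2 or 3 libraries were too small to test any single library as an outlier.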

How the results depend on the processing

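Of 148 results on single members and comparisons, 86 kept their call in every setting run, and none of 4387 values turned its direction; 250 fell short of the threshold. Settings other than leaving out a library kept every count of members called within 1.5 times its first value. Leaving out 1 library moved the counts of changed members to 21 to 26 in wild-type, 17 to 20 in floxed, 19 to 24 in knockout and 22 to 27 in catalytic-dead cells. For knockout against floxed it gave 8 to 13 in the naive and 8 to 14 in the formative state, for catalytic-dead against wild type 4 to 8 and 0 to 4, and for floxed against wild type 1 to 5 and 2 to 6. Such counts can include members that were called only with that library left out. For differing changes it gave 6 to 10 for knockout against floxed and 0 to 1 for catalytic-dead against wild type, the last at 0 without naive wild-type library b. With the columns as deposited, 24 members changed in knockout and 24 in catalytic-dead cells, 10 differed between formative knockout and floxed cells and 2 between formative catalytic-dead and wild-type cells. Without the shared library, 22 changed in catalytic-dead cells. The cause of these shifts was not tested. No paired analysis was possible because the recovered libraries carry no replicate numbers. Not every setting gave a value for every result, since a stricter filter and fewer groups left members untested.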
